A study of Mus musculus with 3 samples.

Results

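The genes described here encode the enzymes that make nucleotides and deoxynucleotides and recover them from nucleosides and bases. They were chosen by name as a list of 38 mouse genes, and all 38 were found by Entrez identifier among the 26286 rows of the count table. The list covers 12 genes of de novo purine synthesis, 5 of de novo pyrimidine synthesis, 5 of folate-dependent one-carbon supply, 8 of deoxynucleotide (dNTP) synthesis and control, and 8 of salvage.

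RNA was sequenced from pre-B cells sorted from mouse bone marrow, in 3 libraries that form 1 group with no second condition. Every donor was a bitransgenic CAG-rtTA3;TRE-GFP-shLuc.1309 mouse, in which a transactivator under the CAG promoter responds to doxycycline and switches on GFP together with a control short hairpin RNA. All received doxycycline for 3 days, and the sorted cells were GFP+, B220+ and CD25+ and lacked surface IgM and Kit. The labels give no ages and do not say if the libraries are from different mice, and part of the spread among them may be technical, in which case p-values measure only that. The libraries differ in the version of CASAVA, Illumina's base-calling and demultiplexing software, which was 1.8.0 for replicate 3 and 1.8.2 for replicates 1 and 2.

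Pre-B cells divide in a burst after a functional heavy chain is made and then stop to rearrange their light chain genes. A dividing cell has to copy its genome, and for that it makes dNTPs from ribonucleotides with ribonucleotide reductase, a complex of a large subunit and 1 of the small subunits. Purines are built stepwise on phosphoribosyl pyrophosphate with carbon units carried by folate, pyrimidines are built as a ring that is then joined to the same sugar, and salvage kinases and phosphoribosyltransferases return nucleosides and bases to the pools. Lymphocytes are known for their dependence on this balance, since inherited loss of adenosine deaminase or purine nucleoside phosphorylase causes immunodeficiency.

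Replicate 3 held 32086649 counts, against 12418054 for replicate 1 and 12021576 for replicate 2, and the 38 genes together took 0.368%, 0.356% and 0.351% of these totals. Levels are given as RPKM, reads per kilobase of gene length scaled to the library's total, as mean ± SD over the 3 libraries unless a library is named. The identity of the cells was checked on 14 B-lineage and pre-B genes. All 14 reached 1 RPKM in every library, with summed levels of 4812, 5207 and 5417 RPKM in replicates 3, 1 and 2. Other lists differed between the libraries. The summed level of 15 neutrophil genes was 2465 RPKM in replicate 3, against 1388 and 1674 RPKM in replicates 1 and 2. All 15 also reached 1 RPKM in every library, so this threshold does not set the pre-B genes apart from them. T and NK cell genes summed to between 14.4 and 17.4 RPKM, and 5 of 10 monocyte, 4 of 10 erythroid and 2 of 9 stromal and endothelial genes reached 1 RPKM in every library. For the X-inactivation RNA Xist, replicate 3 had 70 counts, replicate 1 had 22609 and replicate 2 had 94, so replicate 1 stood apart in this sex-linked gene. The libraries thus differ in Xist as well as in the version of CASAVA, and the sex of the donors was not tested. In sorted bulk RNA, fewer cells of a type and less RNA per cell cannot be told apart.

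Most of the nucleotide genes were clearly expressed, but their levels were far apart. In every library 37 of the 38 reached 1 RPKM and 25 reached 10 RPKM. Their median on the log2(RPKM + 0.5) scale was 4.09 in replicate 3, 4.03 in replicate 1 and 3.95 in replicate 2, against 2.55, 2.58 and 2.57 over the 17423 genes with a count. Means ran from 0.121 RPKM for Dctd to 165 RPKM for Rrm2. By role, the dNTP genes had the highest median level, 5.65 ± 0.05 on the same log2 scale, followed by salvage at 4.33 ± 0.14, purine synthesis at 3.97 ± 0.05, one-carbon genes at 3.65 ± 0.31 and pyrimidine synthesis at 3.58 ± 0.25. The last pair of medians differed by less than their spread between libraries. This order depends on the division by gene length: as log2(CPM + 0.5) the dNTP genes were still highest at 7.36, but salvage was lowest at 4.72, below purine synthesis at 5.48, pyrimidine synthesis at 5.39 and one-carbon genes at 5.29. When the 38 genes were ordered by level, 16 of the 37 neighbouring pairs kept their order in all 3 libraries, and in 7 the ranges did not overlap, so that most neighbours in this order were not separated.

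**Figure D1:**
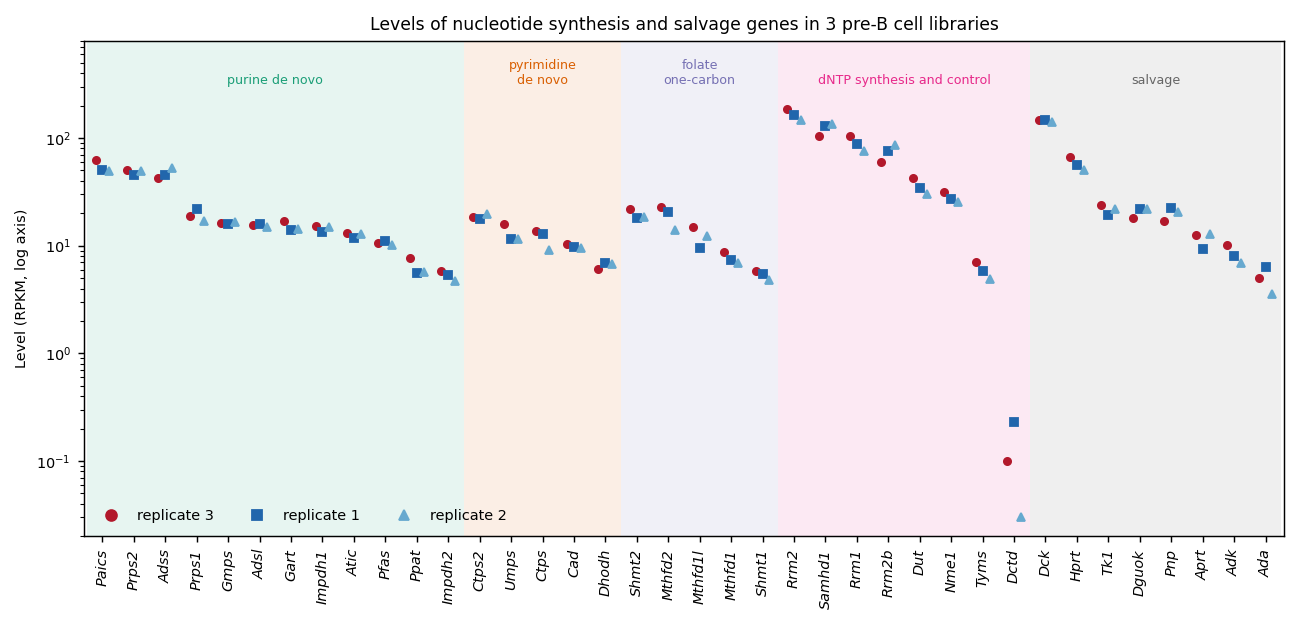
Level of each of the 38 genes in each library, in RPKM on a log axis, grouped by role and ordered by mean level within a role. Symbols stand for replicates 3, 1 and 2. The dNTP genes hold both the highest gene, Rrm2, and the lowest, Dctd, and the 3 libraries lie close together for most genes.

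The subunits of ribonucleotide reductase, which removes the ribose hydroxyl group from ribonucleoside diphosphates, were among the highest genes of the cells. Rrm2 (Entrez 20135), the small subunit made in S phase, had 187, 162 and 146 RPKM in replicates 3, 1 and 2, with a mean above that of 97.9% of genes with a count. Rrm1 (Entrez 20133), the large subunit that holds the active and regulatory sites, had 104, 87.7 and 75.7 RPKM in the same libraries. Both genes were highest in replicate 3 and lowest in replicate 2. Rrm1 stood below Rrm2 by a log2 difference of -0.89 ± 0.05, or 0.541-fold, and this ratio varied least among the 14 pairs of enzymes compared. It rests on the division by gene length: in counts alone (CPM) the difference was -0.02, and Rrm1 had more counts than Rrm2 in replicate 3, 13356 against 13107.

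The promoters of these subunits are shown as examples. Their transcripts kept the same order across the libraries, as did those of other genes of the list. The stretches lie before the annotated starts, that of Rrm2 ending 20 bases short of it, are taken from RefSeq on GRCm38.p6 and are read on the plus strand, and capitals mark the CCAAT box, searched on both strands.
Rrm1, chr7:102441575-102441694: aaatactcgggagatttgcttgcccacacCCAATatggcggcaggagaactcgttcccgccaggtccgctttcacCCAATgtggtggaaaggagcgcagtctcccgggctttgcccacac
Rrm2, chr12:24708134-24708234: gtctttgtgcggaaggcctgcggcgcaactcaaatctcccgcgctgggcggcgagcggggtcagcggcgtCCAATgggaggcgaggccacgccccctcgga
The Rrm1 stretch holds the letters CCAAT beginning 91 and 45 bases before the start, and the Rrm2 stretch holds them beginning 50 bases before it. The letters are common. In the 250 bases before the start they occur on either strand in 37.5% of the 27025 genes with a promoter in the table and in 14 of the 35 nucleotide genes with one, or 40.0%. Tyms, Dut and Nme1, which had the same order across the libraries as Rrm1 and Rrm2, are not among these 14. The word CACGTG, an E-box, occurred in 5 of the 35, namely Paics, Atic, Impdh2, Tyms and Nme1, or 14.3% against 6.86% of all genes. The words TTTCCCGC, TTTGGCGC, TTTCGCGC or TTTGCCGC, forms of the E2F site that do not overlap the others searched, occurred in 1 of the 35, Ppat, against 2.16% of all genes. These matches describe letters in a window and do not show binding. Only exact words were searched, so a gene without a match may still hold another form of a site.

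A second small subunit gene and a dNTP hydrolase were also high, and both had the opposite order across the libraries. Rrm2b (Entrez 382985), a p53-inducible small subunit that supplies dNTPs outside S phase for repair and mitochondrial DNA, had 60.4 RPKM in replicate 3, against 75.7 and 86.8 RPKM in replicates 1 and 2. Samhd1 (Entrez 56045), which breaks dNTPs down to nucleosides, had 105 RPKM in replicate 3, against 130 and 136 RPKM in replicates 1 and 2. For both genes replicate 3 was the lowest and replicate 2 the highest. Rrm2 exceeded Rrm2b by 1.62, 1.09 and 0.74 on the log2 scale in replicates 3, 1 and 2, a mean of 1.15 ± 0.44 or 2.22-fold. Without division by gene length this mean was 0.11, and Rrm2 had fewer counts than Rrm2b in replicate 2, 3802 against 4694. Its excess over Samhd1 was 0.83, 0.32 and 0.10 in the same libraries, a mean of 0.42 ± 0.38. The mean excess over Samhd1 was therefore close to its SD, and it became -0.46 when counts were not divided by gene length.

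The thymidylate branch was uneven. Dut (Entrez 110074), the dUTPase that keeps uracil out of DNA and makes dUMP, had 42.3, 34.6 and 29.997 RPKM in replicates 3, 1 and 2. Tyms (Entrez 22171), which methylates dUMP to dTMP, had 7.05, 5.83 and 4.91 RPKM in the same libraries. Dctd (Entrez 320685), which deaminates dCMP to dUMP, had only 9, 8 and 1 counts, or 0.1005, 0.231 and 0.030 RPKM, and did not pass the filter on low counts. Dctd was thus the only gene of the 38 under 1 RPKM, whereas Dut lay above 84.8% of genes with a count. Nme1 (Entrez 18102), a nucleoside diphosphate kinase that completes the triphosphates, stood at 28.1 ± 3.13 RPKM.

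Among the salvage genes the deoxycytidine kinase Dck stood far above the rest. Dck (Entrez 13178), which phosphorylates deoxycytidine, deoxyadenosine and deoxyguanosine, had 147, 146 and 140 RPKM in replicates 3, 1 and 2, with a coefficient of variation of 2.34%, the smallest among the 38 genes. Tk1 (Entrez 21877), the cytosolic thymidine kinase of S phase, stood at 21.6 ± 2.18 RPKM. It differed from Dck by -2.72 ± 0.15 on the log2 scale, or 0.152-fold. Dguok (Entrez 27369), the mitochondrial deoxyguanosine kinase, stood at 20.6 ± 2.19 RPKM, and Dck exceeded it by 2.78 ± 0.18, or 6.87-fold.

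Purine salvage was led by Hprt (Entrez 15452), which returns hypoxanthine and guanine to the nucleotide pool, at 66.2, 56.0 and 49.9 RPKM in replicates 3, 1 and 2. Aprt (Entrez 11821), its counterpart for adenine, had 12.5, 9.30 and 12.8 RPKM. Hprt exceeded Aprt by 2.27 ± 0.31 on the log2 scale, or 4.83-fold. Pnp (Entrez 18950), the purine nucleoside phosphorylase, stood at 19.9 ± 2.84 RPKM. Adk (Entrez 11534), which phosphorylates adenosine to AMP, stood at 8.40 ± 1.63 RPKM. Ada (Entrez 11486), the adenosine deaminase, was the lowest salvage gene at 5.05, 6.39 and 3.59 RPKM in replicates 3, 1 and 2, from 264, 129 and 70 counts. Its coefficient of variation of 27.9% was the largest among the 37 genes past the filter. Adk exceeded Ada by 0.71 ± 0.35 on the log2 scale, or 1.63-fold, with differences of 0.94, 0.31 and 0.87 in replicates 3, 1 and 2.

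In de novo purine synthesis the genes of consecutive steps were not at 1 level. Phosphoribosyl pyrophosphate is made by Prps1 (Entrez 19139), at 19.2 ± 2.48 RPKM, and Prps2 (Entrez 110639), at 48.3 ± 2.40 RPKM. Ppat (Entrez 231327), which commits this sugar to purine synthesis, had 7.75, 5.60 and 5.70 RPKM in replicates 3, 1 and 2. The enzymes that build the ring after it were Gart at 15.1 ± 1.70 RPKM, Pfas at 10.6 ± 0.494 RPKM, Paics at 53.9 ± 7.22 RPKM, Adsl at 15.5 ± 0.443 RPKM and Atic at 12.6 ± 0.794 RPKM. Paics (Entrez 67054), a bifunctional carboxylase and synthetase, was therefore the highest of the purine genes as deposited and Ppat among the lowest. With the rows of genes that share their sequence added, Impdh2 and Prps1 came to 66.9 and 79.4 RPKM, above Paics. The row added to Prps1 is of a gene that also holds sequence of its own, so 79.4 RPKM is not the level of Prps1 alone. Paics exceeded Ppat by 3.00 ± 0.07 on the log2 scale, or 7.98-fold. The RefSeq starts of these genes face each other, Paics on the plus and Ppat on the minus strand, with 277 bases transcribed on both. No source used here says if reads were assigned by strand, which makes reads from that overlap uncertain for both genes.

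After inosine monophosphate the path divides. Adss (Entrez 11566), the adenylosuccinate synthase of the AMP branch, stood at 46.9 ± 5.42 RPKM, and Gmps (Entrez 229363), which makes GMP, at 16.2 ± 0.423 RPKM. Impdh1 (Entrez 23917) and Impdh2 (Entrez 23918) encode the dehydrogenases that open the GMP branch. Impdh2 had 5.81, 5.33 and 4.65 RPKM in replicates 3, 1 and 2, against 15.2, 13.3 and 15.01 RPKM for Impdh1. The values do not overlap, and Impdh2 differed from Impdh1 by -1.38 ± 0.18 on the log2 scale, or 0.384-fold, as deposited.

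This order of the Impdh genes turned when the row of a pseudogene was added. Of the words of 31 bases in the protein-coding Impdh2 transcripts of GENCODE, 73.0% also occur in transcripts of other genes, and 72.1% occur in the processed pseudogene Impdh2-ps, which has its own row. Impdh2-ps had 3418, 1302 and 1086 counts in replicates 3, 1 and 2, against 305, 108 and 91 for Impdh2, or 11.5 times as many. With both rows summed over the length of Impdh2 the level was 66.9 ± 5.84 RPKM, and the difference from Impdh1 was 2.17 ± 0.19, or 4.49-fold. Impdh1 shares no such word with another annotated transcript. The counting of reads that align to several places is unstated in the labels, and both rows may lack such reads, so the level of Impdh2 and the order of the isozymes are uncertain.

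The order of the Prps genes also turned when a row was added, but the share of words in common was much smaller than for Impdh2. Prps1l3, named for its likeness to Prps1, had 3780, 1460 and 1463 counts in replicates 3, 1 and 2, against 1203, 534 and 398 for Prps1, and shares 18.8% of the words of Prps1. Prps1 differed from Prps2 by -1.32 ± 0.24 on the log2 scale as deposited and by 0.71 ± 0.10 with the row of Prps1l3 added. Prps1l3 also holds sequence of its own, so part of this sum belongs to that gene, and how much was not tested. All counts of Prps1l3, a row of 4006 bases, were divided here by the 1975 bases of Prps1. The turn therefore does not show that Prps1 itself was above Prps2. Smaller shares were in the rows of Tyms-ps, with 293, 81 and 79 counts against 864, 276 and 224 for Tyms, and of Pnp2, with 83, 20 and 21 counts against 1601, 824 and 717 for Pnp. These 4 rows were chosen after their values were seen. In all, 10 of the 38 genes shared more than 10% of their words with other transcripts, which makes their levels less certain. They were Prps1, Gart, Paics, Impdh2, Rrm2, Rrm2b, Tyms, Nme1, Tk1 and Pnp. For Gart, Rrm2, Rrm2b, Nme1, Tk1 and Pnp the largest share was with a gene that has no row of counts, antisense for Gart and Rrm2b. Words were searched on both strands, which does not separate copies from transcripts that overlap a gene.

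**Figure D2:**
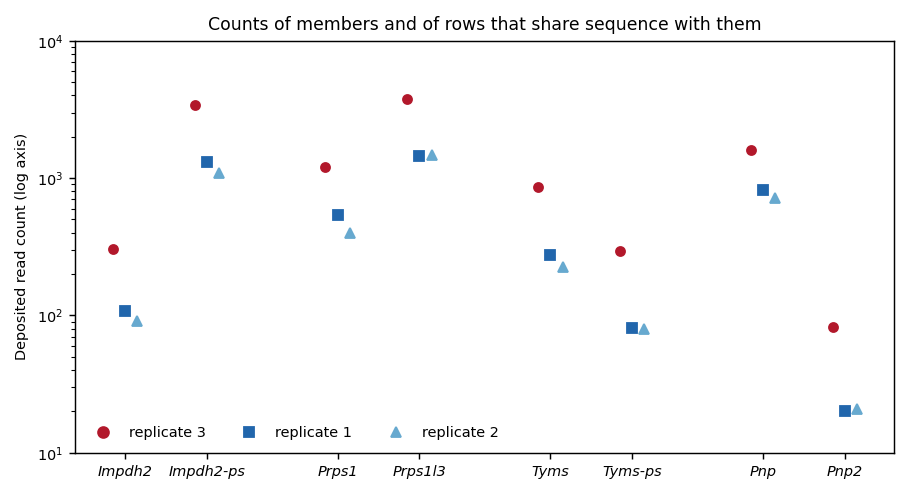
Deposited read counts, on a log axis, of Impdh2, Prps1, Tyms and Pnp and, to the right of each, of the row that shares sequence with it. Symbols stand for replicates 3, 1 and 2. The copy has more counts than the member for Impdh2 and Prps1, and fewer for Tyms and Pnp.

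The pyrimidine genes lay in a narrow band. Cad (Entrez 69719), whose protein carries the first steps of the pathway, stood at 9.86 ± 0.520 RPKM and Dhodh (Entrez 56749), the dehydrogenase of the mitochondrial membrane, at 6.58 ± 0.405 RPKM. Umps (Entrez 22247), which completes UMP, had 16.0, 11.6 and 11.5 RPKM in replicates 3, 1 and 2. The CTP synthases were Ctps (Entrez 51797), at 13.6, 12.8 and 9.07 RPKM, and Ctps2 (Entrez 55936), at 18.6, 17.6 and 19.6 RPKM. Ctps was below Ctps2 in each library, by a mean log2 difference of -0.65 ± 0.36, or 0.637-fold.

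In the 3 one-carbon pairs compared the mitochondrial enzyme was higher than its cytosolic counterpart. Shmt2 (Entrez 108037), the mitochondrial serine hydroxymethyltransferase, had 22.03, 18.1 and 18.3 RPKM in replicates 3, 1 and 2, against 5.81, 5.42 and 4.81 RPKM for the cytosolic Shmt1 (Entrez 20425). The difference was 1.77 ± 0.10 on the log2 scale, or 3.41-fold. Mthfd2 (Entrez 17768), the mitochondrial dehydrogenase and cyclohydrolase, stood at 19.3 ± 4.64 RPKM and exceeded the cytosolic trifunctional Mthfd1 (Entrez 108156, 7.69 ± 0.894 RPKM) by 1.25 ± 0.24, or 2.38-fold. Mthfd1 differed from the mitochondrial formate-producing ligase Mthfd1l (Entrez 270685, 12.2 ± 2.67 RPKM) by -0.62 ± 0.24, or 0.65-fold. Mitochondrial enzymes of the wider list, named here after their values were seen, went the other way: Mthfd2l, a relative of Mthfd2, had 0.744 ± 0.136 RPKM, and Aldh1l2 had 0.0284 ± 0.00221 RPKM against 0.103 ± 0.0444 RPKM for the cytosolic Aldh1l1, both from at most 12 counts in a library.

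Each of the 14 pairs had 1 sign in all 3 libraries. With 3 libraries the exact two-sided sign-flip permutation test cannot go below p = 0.25, so p and its Benjamini-Hochberg adjusted value over the 14 pairs were 0.25 for every pair and none could pass 0.05.

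**Figure D3:**
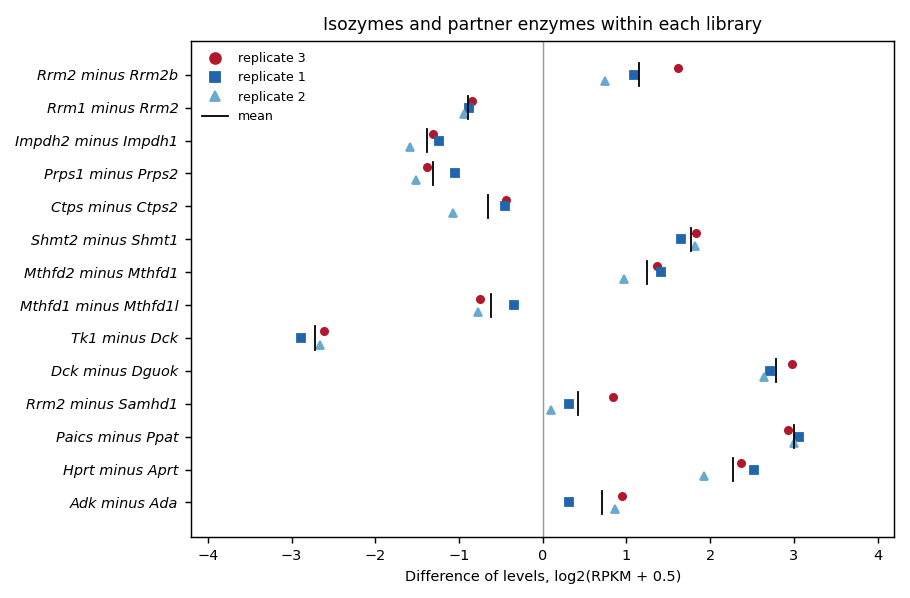
Difference of the levels of 14 pairs of isozymes or partner enzymes within each library, on the log2(RPKM + 0.5) scale, as deposited. Symbols stand for replicates 3, 1 and 2 and the line for their mean. Every pair lies on 1 side of 0 in all libraries, Rrm2 minus Samhd1 nearest to it.

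The spread of the genes between libraries was set against counting noise. A chi-square test with Benjamini-Hochberg adjustment called 29 of the 37 genes past the filter, and 54.6% of the 12147 genes tested. The 8 that were not called were Pfas, Adsl, Atic, Impdh1, Impdh2 and Gmps of purine synthesis, Dhodh and Shmt1. All 7 tested dNTP genes and all 8 salvage genes were called, Dck only narrowly (adjusted p = 0.0482). Without replicate 3, the deepest library, 12 of the 37 were called, against 25.7% of all genes. A chi-square test calls small differences more readily in genes with more counts. The median level of the nucleotide genes was above that over all genes with a count, and these shares were not matched for counts.

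The direction of this spread differed by gene. Replicate 3 was above both other libraries for 24 of the 37 genes, or 64.9%, against 35.1% of all genes tested, and below both for 6, or 16.2%, against 36.1% of all genes tested. The full order with replicate 3 highest and replicate 2 lowest was shown by 16 of the 37, against 21.9% of all genes tested, among them 5 of the 7 dNTP genes: Rrm1, Rrm2, Tyms, Dut and Nme1. The reverse order was shown by 4, namely Rrm2b, Samhd1, Adss and Dguok, against 22.1% of all genes tested. Of the 5 one-carbon genes all were highest in replicate 3. The 4 X-linked genes, Prps1, Prps2, Ctps2 and Hprt, did not share an order, and replicate 1, the library with the high Xist count, was highest for Prps1 and lowest for Prps2 and Ctps2.

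edgeR's quasi-likelihood test of replicate 3 (CASAVA 1.8.0) over replicates 1 and 2 (CASAVA 1.8.2) gave these differences a size. It called 0 of the 37 genes, and 0.0741% of all genes tested, at a Benjamini-Hochberg adjusted p below 0.05. At an unadjusted p below 0.05 there were 10 of the 37, against 9.62% of all genes, and DESeq2 called 0 of the 37 as well, with 5 at an unadjusted p below 0.05, against 3.77% of all genes by that tool. The smallest adjusted p by edgeR was 0.368, for Umps, with a log2 fold change of 0.48 ± 0.14 (SE). The median log2 fold change was 0.18 for the 37 genes and -0.01 for all genes tested. By role it was 0.28 for dNTP genes, 0.28 for one-carbon genes, 0.13 for pyrimidine genes, 0.10 for salvage genes and 0.09 for purine genes.

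Single values bear the split within the dNTP genes. Dut had a log2 fold change of 0.39 ± 0.13 (SE; edgeR, adjusted p = 0.418), Rrm1 of 0.35 ± 0.14 (adjusted p = 0.496), Samhd1 of -0.34 ± 0.13 (adjusted p = 0.469) and Rrm2b of -0.43 ± 0.14 (adjusted p = 0.418). None of these passed the test, and with 1 library against 2 the software version and the library cannot be told apart. The S phase and mitosis lists moved in the direction of Dut and Rrm1, opposite to Samhd1 and Rrm2b. All 16 S phase genes and all 16 mitosis genes were highest in replicate 3, against 35.1% of all genes tested. The median log2 fold changes of these lists were 0.42 and 0.34. Their summed levels were 1023 and 2030 RPKM in replicate 3, against 834 and 1787 RPKM in replicate 1 and 706 and 1428 RPKM in replicate 2, led by Uhrf1 (126 ± 25.6 RPKM) and Pcna (120 ± 27.1 RPKM) and by Top2a (336 ± 55.7 RPKM) and Mki67 (259 ± 42.3 RPKM). The 14 pre-B genes had a median of -0.11 and the 15 neutrophil genes one of 0.63. The part of each of these in the values of the nucleotide genes was not tested. Between replicates 1 and 2, the orders given above put Rrm1, Rrm2, Tyms, Dut and Nme1 higher in replicate 1. They put Rrm2b and Samhd1 higher in replicate 2. Replicate 1 was the higher for 14 of the 16 S phase genes and all 16 mitosis genes. It was also the higher for 22 of the 37 nucleotide genes and 6112 of the 12147 genes tested. The source of these orders was not tested.

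**Figure D4:**
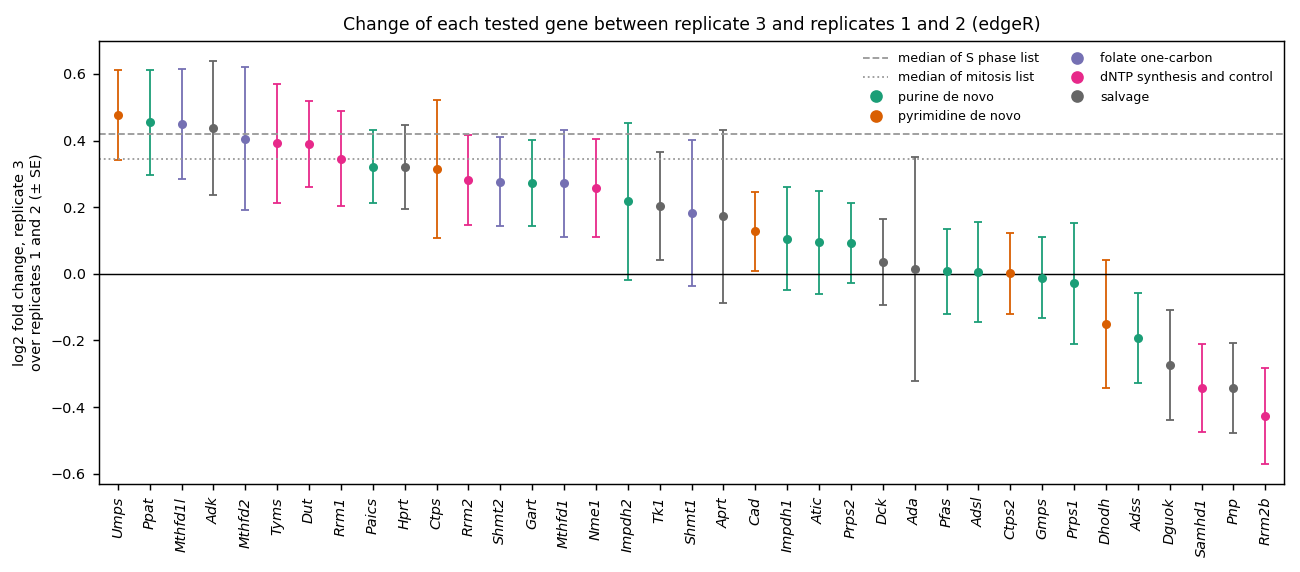
Fitted log2 fold change of each of the 37 tested genes in replicate 3 over replicates 1 and 2 (edgeR), with SE as bars and colour by role. Grey lines give the medians of the S phase list, 0.42, and the mitosis list, 0.34. Values run from 0.48 for Umps to -0.43 for Rrm2b, and no gene passed the adjusted test.

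A wider list of 69 other genes of nucleotide metabolism was measured beside these. Of them 46 reached 1 RPKM in every library, and their median level was 2.67 ± 0.03 on the log2(RPKM + 0.5) scale. Among the highest were the nucleotidase Nt5c at 68.5 ± 3.86 RPKM, the UMP and CMP kinase Cmpk1 at 61.2 ± 2.29 RPKM, the mitochondrial nucleoside phosphate kinase Ak3 at 59.9 ± 2.24 RPKM and the thymidylate kinase Dtymk at 36.99 ± 1.56 RPKM. No counts were found for 7 genes. They were Ak1, Nt5c1a, Nt5c1b, Upp2, Cda, Dpyd and Dpys, and 3 counts in the smallest library would allow up to between 0.056 RPKM for Dpyd and 0.309 RPKM for Cda. Cda encodes the deaminase that turns cytidine and deoxycytidine into uridine forms, and Dpyd and Dpys encode the first enzymes of pyrimidine breakdown. Of the 50 that passed the filter, 21 differed between libraries beyond Poisson noise and edgeR called 0 between CASAVA versions, with 4 at an unadjusted p below 0.05. Their median log2 fold change was 0.08, with 29 values above 0 and 21 below.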

How the data were processed

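As deposited by the authors, each file lists whole-number read counts by Entrez gene together with a gene length. Per the submitters' processing notes, reads were summarised with featureCounts on mm9 after CASAVA, whose version (1.8.0 or 1.8.2) comes from the labels. The aligner, annotation, read length, strand setting and treatment of multiply aligned reads remain unstated in the labels. The 3 sample files equal the series table. Symbols came from RefSeq on GRCm38.p6 by Entrez identifier (24176 of 26286 matched, with all 38 members and 171 of 172 context genes), for names and neighbours only. Promoter sequences and their coordinates are of GRCm38.p6, not of the files' build.

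The analysis used edgeR 4.0.16 and limma 3.58.1 under R 4.3.3. TMM factors were computed on genes past filterByExpr (minimum count 10, minimum total 15), and came to 1.0028 for replicate 3, 1.0003 for replicate 1 and 0.9969 for replicate 2. Deposited counts divided by length and scaled total gave RPKM, and log2 values carry a pseudocount of 0.5. The libraries were tested for spread beyond Poisson noise by chi-square, and replicate 3 was tested against the others by edgeR's quasi-likelihood test (SE taken as the fold change over the square root of F), and DESeq2 1.42.0 was an alternative. Words of 31 bases were counted in GENCODE M21 transcripts. Intervals are not given for single libraries, and the floor of 3 counts covers counting error only. Both tests were first run on simulated counts holding known changes, which were larger than any fold change fitted for the nucleotide genes. For the edgeR test the spread was set alike for every gene. These runs do not show the power to call changes of the size seen here. Plots came from Python 3.11.15 and matplotlib 3.10.9.

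The members, role classes, pairs and context lists were chosen with earlier results of these data known. All members are named. Of the other nucleotide genes the 5 highest (1 is not reported here), those without counts and any past the edgeR threshold are named, and of the S phase and mitosis lists the 2 highest. Pseudogenes named after a member are named where they have counts. Alternatives were other pseudocounts, CPM or TPM, no scaling or size factors from DESeq2, no filter, a robust fit, thinning of replicate 3 and leaving out each replicate. The summed rows of copies, and the alternatives for single levels, were added after seeing the data.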

Additional observations from a re-analysis of the deposited data

How the results depend on the processing

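The 14 mean pair differences kept their sign under other pseudocounts, TPM, other scaling and with each replicate left out. Every pair had 1 sign in all 3 libraries, and these settings cannot change which gene is higher within a library. The sign was thus fixed in advance. With CPM, Rrm2 minus Samhd1 became -0.46, and Rrm1 minus Rrm2 and Rrm2 minus Rrm2b shrank to -0.02 and 0.11 and no longer had 1 sign in all libraries (exact sign-flip p = 0.75 for both). The other 11 held 1 sign in all 3. With the row of a copy added, chosen after seeing the data, Impdh2 minus Impdh1 became 2.17 and Prps1 minus Prps2 became 0.71, since the added counts exceed those of the member. The median level of the 38 genes, 4.02 as log2(RPKM + 0.5), was 5.41 with CPM and 5.24 with TPM, against 3.55 with CPM, 3.74 with TPM and 2.57 with RPKM for all genes with a count. The count of genes beyond Poisson noise, 29, was 26 with replicate 3 thinned to the smallest total and between 12 and 24 with 1 replicate left out, lowest without replicate 3, the library with the most counts. Over all genes tested the share also fell, from 54.6% to 46.8% with thinning and to between 25.7% and 43.3% with 1 replicate left out. The count of genes called between CASAVA versions was 0 under each alternative that gave a test, and the median change stayed between 0.16 and 0.26. Leaving out replicate 1 or 2 gave fold changes only, and without replicate 3 there is no contrast. The levels of single genes moved by less than 1 SD under other scaling and with any replicate left out. Leaving out 1 of 3 libraries cannot by itself move a mean by 1 SD. The TMM factors lay between 0.9969 and 1.0028, so scaling could move levels little, and this is no measure of their stability. No paired analysis was possible because all libraries belong to 1 group. Depth limits Dctd, with at most 9 counts in a library.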

Other observations

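Tk2, the mitochondrial thymidine kinase and a gene of the wider list, was chosen here after its values were seen. It had 22.4 RPKM in replicate 3, against 30.9 and 36.4 RPKM in replicates 1 and 2. Its log2 fold change of -0.59 did not pass edgeR's test (adjusted p = 0.304). Values of Tk2 thus lay lowest in replicate 3, as did those of 36.1% of all genes tested. Among the tested nucleotide genes this also held for Rrm2b, Samhd1, Adss, Dhodh, Dguok and Pnp.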
